A study of Mus musculus with 10 samples.

Results

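Nufip1 encodes a nuclear zinc finger protein that binds RNA and the fragile X protein FMRP and acts in the assembly of small nucleolar ribonucleoproteins (snoRNPs). The 9 genes described here are Nufip1 and 8 partners, namely its binding partner Znhit3, the assembly factor Znhit6, the box C/D core proteins Nop56, Nop58 and Fbl, and the chaperone subunits Pih1d1, Ruvbl1 and Ruvbl2. They were taken by symbol out of 53379 genes counted per library, and all 9 were among the 19754 genes with enough reads to be tested. Nufip1 was chosen by its measured values, since it was selected on its opposite change in appetitive and aversive cells against the neutral group. Its differences between groups are therefore given as a description without a test. The partners were listed for what their proteins do, but with earlier results of these data known.

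RNA-seq was done on EYFP cells sorted from dissociated hippocampal regions of male mice 5 weeks old that carried a ChR2-YFP transgene, with 8 mice pooled for a condition. The labels give no other genotype, and the study calls the cells vCA1 cells. In its scheme the tag came from a pair of AAV9 viruses, with tTA driven by the cFos promoter and ChR2-EYFP driven by TRE, so that it marks cells in which that promoter was active. The aversive group (2 libraries, replicates 1 and 3) had received 4 foot shocks of 2 s at 1.5 mA, and the appetitive group (2 libraries, replicates 1 and 2) had spent 1 h with a female in a clean home cage. The neutral group (3 libraries) had been in the conditioning cage with neither stimulus, and the mock group (3 libraries) had stayed in the home cage. Neutral libraries were made under another kit name and read at 100 bp paired-end, the other libraries at 40 bp single-end (of each read the first 40 bp were mapped), so that library preparation and the neutral condition cannot be told apart in any comparison with the neutral group. The labels give the same sort and pool for the mock group, whereas the study's methods call it an untagged control of 2 mice, in which case its 3 libraries share animals. The length of the female exposure is that of the labels (the methods give 2 h), and the sorted material is called cells in the labels and methods and nuclei in the study's Results. Nothing in the labels says that libraries of a group came from separate animals, and p-values measure the spread between libraries, which may be technical.

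Library totals ranged from 16968588 to 67650693 counts, and 3 counts in a library correspond to 0.0347 to 0.235 CPM (reads of a gene over all reads of the library, scaled to a common total with TMM factors). The appetitive libraries had the fewest genes with a count (14144 and 14658, against 16849 to 30899 in the others), and 56.6% and 48.9% of the tested genes had at most 3 counts in them. Of 11 neuron markers, 7 to 11 had more than 3 counts in a library, with Gad1 or Gad2 at 0 in 6 of the 10, and they summed to 81.0 to 114 CPM in neutral, 238 to 421 in mock, 591 to 748 in aversive and 175 to 777 in appetitive libraries, whereas 7 oligodendrocyte markers summed to 7440 CPM or more in each library and reached 802235 CPM in an appetitive one. The oligodendrocyte sum differed between libraries of a valence group: 802235 and 80820 CPM in appetitive replicates 1 and 2, and 409849 and 24856 CPM in aversive replicates 1 and 3. The 6 markers of choroid plexus and ependyma summed to 21147 to 129875 CPM in neutral libraries and to 848 to 13507 in the others. The neutral libraries also lay apart in 6 astrocyte markers (150 to 332 CPM, against 3071 to 14282 in the others) and 7 microglia markers (39.7 to 332 CPM, against 935 to 9463). The part of these cell contents in the results below was not tested. A difference in the level of a gene may therefore reflect fewer cells of a type or less RNA per cell, which cannot be told apart in sorted pools.

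As background, box C/D small nucleolar RNAs guide the methylation of ribosomal RNA, and each works as a particle with the proteins NOP56, NOP58, SNU13 and the methyltransferase fibrillarin (Fbl). The particle does not form by itself: NUFIP1, held stable by ZNHIT3, bridges SNU13 to the R2TP chaperone complex (PIH1D1, RPAP3 and the ATPases RUVBL1 and RUVBL2), which works with HSP90, and ZNHIT6 joins the pre-particle. Every cell that makes ribosomes, neurons included, needs these factors.

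The RNAs that these proteins package are recognised by 2 short motifs, box C near the 5′ end and box D near the 3′ end. They are shown here because Nop56 and Nop58 themselves host such RNAs, so that the core protein and its client come from 1 transcript. The annotation placed 9 snoRNAs within the 2 genes, 5 in Nop56 and 4 in Nop58, and in 3 of them both an exact box C (ATGATGA or GTGATGA in the first 20 bases) and a box D (CTGA in the last 15 bases) were found. Their sequences follow, 5′ to 3′ from GENCODE M21 on GRCm38, with boxes C and D in capitals. Each lies in an intron: the first in Nop56 at chr2:130275506-130275573 on the plus strand, the others in Nop58 at chr1:59704258-59704338 and chr1:59704790-59704873, also on the plus strand, with no base in an annotated exon of the host.
Snord110: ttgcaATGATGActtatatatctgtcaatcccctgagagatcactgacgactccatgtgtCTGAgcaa
Gm26287: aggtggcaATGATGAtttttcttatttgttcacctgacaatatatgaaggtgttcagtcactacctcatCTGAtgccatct
Snord11: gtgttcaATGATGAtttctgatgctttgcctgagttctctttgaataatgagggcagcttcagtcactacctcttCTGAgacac
The libraries were made from polyadenylated RNA, and these RNAs were barely counted: Snord110 had 17 reads over the 10 libraries, Gm26287 had 3 and Snord11 had 0. Of 98 annotated genes of the Snord series, 2 to 34 had a read in a library, with 67 to 684 reads in all per library. The client RNAs could thus not be compared between groups, and the values below are those of the proteins' messengers.

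Nufip1 (ENSMUSG00000022009, chr14:76110891-76137379, plus strand, GRCm38) was high in the appetitive and nearly absent in the aversive libraries. The appetitive libraries held 1219 and 1920 reads, or 95.3 and 100.6 CPM. The aversive libraries held 4 and 17 reads, or 0.20 and 0.341 CPM. The neutral libraries held 532, 617 and 431 reads (8.39, 7.13 and 5.54 CPM), and the mock libraries 180, 304 and 899 reads (7.17, 15.8 and 12.4 CPM). Neither valence group overlapped with the others: both appetitive libraries lay above and both aversive libraries below all 6 mock and neutral libraries, which overlapped with each other. The mean was 97.9 ± 3.71 CPM (SD, n = 2) in appetitive, 7.02 ± 1.43 (n = 3) in neutral, 11.8 ± 4.37 (n = 3) in mock and 0.270 ± 0.0994 (n = 2) in aversive cells.

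On the log2 scale the fitted difference was 3.80 (SE 0.96) for appetitive versus neutral and −4.67 (SE 1.16) for aversive versus neutral. It was 8.47 (SE 1.41) for appetitive versus aversive. Against the home cage, the differences were 3.05 (SE 0.94) for appetitive, −5.42 (SE 1.21) for aversive and −0.75 (SE 0.83) for neutral. Because the gene was picked for this pattern, these values carry no p-value. The same order, with both appetitive libraries above and both aversive libraries below the other 6, was held by 81 of the 19754 genes (0.41%), and among Nufip1 and the 109 genes of the lists described below by Nufip1 alone.

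**Figure D1:**
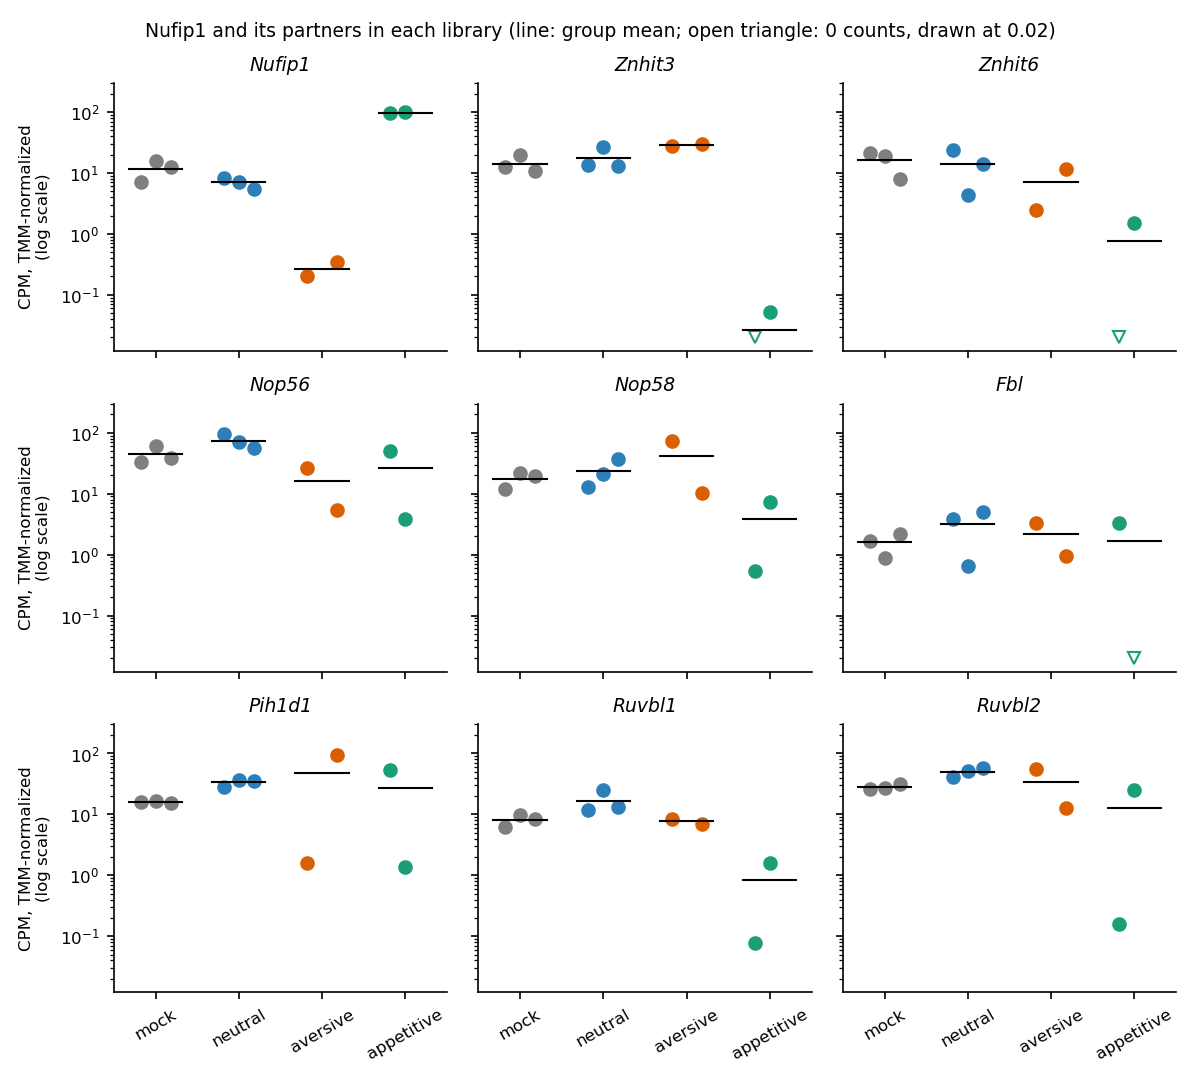
Level of each of the 9 genes in each library, in TMM-normalized CPM on a log axis, by group; points are libraries in order of replicate number, lines are group means, and open triangles at 0.02 mark libraries with 0 counts. Nufip1 was at 95.3 and 100.6 CPM in appetitive and at 0.20 and 0.341 CPM in aversive libraries, whereas Znhit3 was at 28.2 and 30.3 CPM in aversive and at 0 and 0.0524 CPM in appetitive libraries.

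Znhit3 (ENSMUSG00000020526, chr11:84910950-84916366, minus strand) encodes the zinc finger HIT protein that binds NUFIP1 directly and keeps it stable. It was lost from the appetitive libraries, where Nufip1 was highest. The appetitive libraries held 0 and 1 read of Znhit3, against 563 and 1513 reads in the aversive libraries. The neutral libraries held 849, 2277 and 1024 reads, and the mock libraries 309, 378 and 776. In CPM these were 0 and 0.0524 in appetitive, 28.2 and 30.3 in aversive, 13.4, 26.3 and 13.2 in neutral and 12.3, 19.7 and 10.7 in mock. The appetitive libraries lay below all others and the aversive libraries above all others, which is the order of Nufip1 turned round. That mirror order was held by 126 of the tested genes (0.638%), and of the list genes by Znhit3 and by Bms1, a GTPase of the small-subunit processome, alone.

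Znhit3 was lower in appetitive cells than in each other group by edgeR's quasi-likelihood test with Benjamini-Hochberg adjustment over all tested genes. The adjusted p was 0.0221 against neutral, 0.0325 against aversive and 0.0367 against mock. Since the group held a single read, the size is given as the ratio of the other group's mean to the pooled appetitive level with its counting interval (95%, exact Poisson), which covers counting error only. The mean level was 562 times the pooled appetitive level in neutral (101 to 22182), 932 times in aversive (167 to 36828) and 454 times in mock (81.5 to 17929). The higher level in aversive cells did not pass: the log2 difference from neutral was 0.73 (SE 1.09, edgeR adjusted p = 0.773) and from mock 1.04 (SE 1.09, adjusted p = 0.772). By total counts alone the mirror order was lost, because the neutral library of replicate 2 (33.7 CPM) passed the aversive library of replicate 1 (20.7 CPM), while the appetitive libraries stayed at 0 and 0.0590 CPM.

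The calls for Znhit3 lay near the threshold. Leaving out 1 library at a time, the adjusted p against neutral rose to 0.0582, 0.0562 and 0.0520 without mock replicates 1, 2 and 3 and to 0.0643 without neutral replicate 3. Against aversive and against mock, the call was lost without any 1 mock or neutral library (adjusted p 0.0578 to 0.0885 and 0.0658 to 0.104). Without either appetitive or either aversive library it was not lost, but such a fit leaves a single library in that group, which is assumed to vary like the other groups. A fit of the compared groups alone ended the call against neutral (0.0951) and aversive (0.711) but not against mock, while DESeq2 kept all 3.

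Set against each other within a library, the reads of Nufip1 and Znhit3 do not depend on the scaling. The ratio of Nufip1 to Znhit3 reads was 0.583, 0.804 and 1.16 in mock and 0.627, 0.271 and 0.421 in neutral libraries. It was 0.0071 and 0.0112 in the aversive libraries, and in the appetitive libraries 1219 reads of Nufip1 stood against 0 of Znhit3 and 1920 against 1. The aversive libraries lay below and the appetitive libraries above the 6 mock and neutral ones. This ratio has no test, since it holds the values that chose Nufip1.

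**Figure D2:**
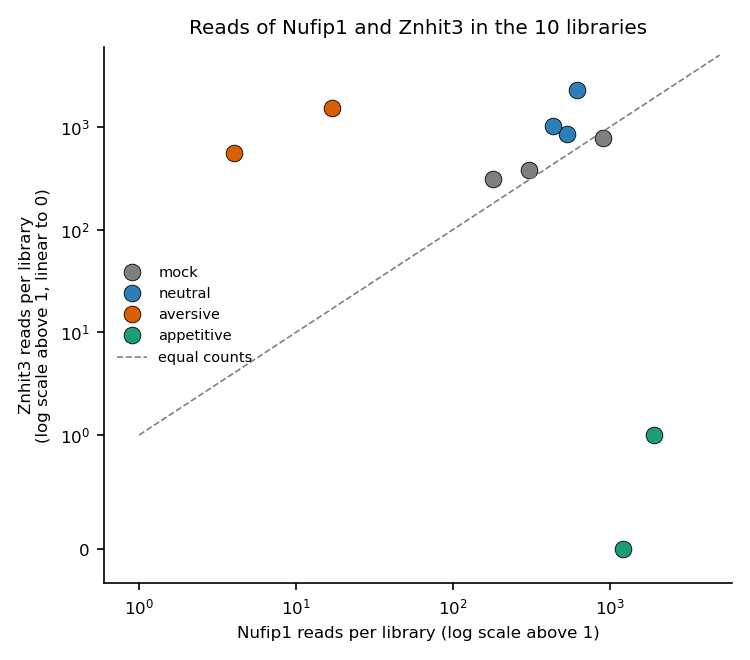
Reads of Nufip1 (horizontal) and Znhit3 (vertical) in each of the 10 libraries, on log axes above 1 read; the dashed line marks equal reads. The aversive libraries lie at the upper left (4 and 17 reads of Nufip1, 563 and 1513 of Znhit3), the appetitive libraries at the lower right (1219 and 1920 reads of Nufip1, 0 and 1 of Znhit3), and the mock and neutral libraries near the line between them.

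Znhit6, the other zinc finger HIT protein of the pathway, did not pass in any comparison. It had 0 and 29 reads (0 and 1.52 CPM) in appetitive, 50 and 574 reads (2.50 and 11.5 CPM) in aversive, 4.35 to 24.0 CPM in neutral libraries and 7.93 to 21.3 CPM in mock. Both appetitive libraries lay below all others, whereas the aversive libraries overlapped with neutral and mock. The share of all tested genes with such an order was not counted, here, for Znhit3 or for the partners below. In appetitive replicates 1 and 2, 56.6% and 48.9% of the tested genes had at most 3 reads. The log2 difference of appetitive from mock was −4.39 (SE 1.98) with an edgeR adjusted p of 0.207, and from neutral −4.21 (SE 1.96, adjusted p = 0.178).

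Of the 8 partners of Nufip1, Znhit3 was the 1 called in appetitive versus neutral, where 6.17% of all tested genes were called and 5.23% were called lower. It was also the 1 called in appetitive versus aversive (all genes 1.8%, lower 1.69%) and in appetitive versus mock (all genes 1.98%, lower 1.96%). No partner was called in aversive versus neutral (all genes 0.0405%), aversive versus mock (all genes 0%) or neutral versus mock (all genes 0.0861%) by edgeR, and in those comparisons 0 partners had an unadjusted p under 0.05 and DESeq2 called 0. In the whole table, aversive versus mock had 0 called genes by edgeR, with 1968 at an unadjusted p under 0.05 and 1476 called by DESeq2. DESeq2 called 3 partners in appetitive versus neutral, 2 in appetitive versus aversive and 3 in appetitive versus mock, Znhit6 and Ruvbl1 beside Znhit3 in the first and the last. Over its whole gene set DESeq2 called 6053, 3951 and 4803 genes in the same comparisons. All 8 partners had a lower fitted level in appetitive than in neutral cells, as did 59.0% of all tested genes. The median log2 difference was −2.29 for the partners against −0.91 over all tested genes, though Pih1d1 turned to 0.0646 with DESeq2 size factors. The comparisons with 1 appetitive group share its libraries and are not independent of each other.

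The core proteins Nop56 and Nop58 form the scaffold on which the particle is built, and neither passed in any comparison. Nop56 had 56.1 to 95.3 CPM in neutral libraries and 33.7 to 61.3 in mock, and both aversive libraries (26.8 and 5.47 CPM) lay below all of these. Its appetitive libraries, at 49.4 and 3.77 CPM, fell on either side of the aversive ones. Nop58 had 12.9 to 37.8 CPM in neutral libraries and 11.9 to 21.5 in mock, and the appetitive libraries (0.547 and 7.23 CPM, from 7 and 138 reads) lay below all others. The log2 difference of Nop58 between appetitive and aversive, at −3.43 (SE 1.54), had an edgeR adjusted p of 0.246, and the aversive libraries themselves stood at 74.0 and 10.1 CPM.

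Fbl, the methyltransferase of the particle, was counted at a low level in every group. It had 0.658 to 4.96 CPM in neutral, 0.885 to 2.20 in mock, 3.35 and 0.962 in aversive and 3.28 and 0 in appetitive libraries. All 4 groups overlapped.

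Ruvbl1, Ruvbl2 and Pih1d1 are subunits of R2TP, the complex that loads the core proteins. Ruvbl1, an AAA+ ATPase, had 1 and 30 reads (0.0782 and 1.57 CPM) in appetitive libraries, below all others, against 11.9 to 25.1 CPM in neutral, 6.13 to 9.79 in mock and 8.51 and 6.85 in aversive libraries. Its log2 difference of −4.32 (SE 1.64) between appetitive and neutral had an edgeR adjusted p of 0.116. Ruvbl2, the ATPase that forms the ring with it, had 2 and 484 reads (0.156 and 25.4 CPM) in the appetitive libraries, the first far below and the second just below the 26.1 to 56.7 CPM of mock and neutral. Pih1d1, the adaptor subunit, ranged from 15.1 to 16.4 CPM in mock and from 28.4 to 37.3 CPM in neutral libraries, and its 2 valence groups each held a low and a high library.

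Most partners disagreed between the libraries of a valence group. Pih1d1 stood at 1.60 and 94.5 CPM in the aversive libraries, a 59.0-fold difference between replicates, and at 52.8 and 1.36 CPM in the appetitive ones, a 38.8-fold difference. Nop56 differed 13.1-fold and Nop58 13.2-fold between the appetitive libraries. Nufip1 differed 1.06-fold between the appetitive and 1.70-fold between the aversive libraries, Znhit3 1.08-fold between the aversive libraries and Ruvbl1 1.24-fold. Nufip1 was selected on these libraries, so that its close replicates are a description, and they depended on the scaling: by total counts alone it stood at 45.8 and 113 CPM in appetitive and at 0.147 and 0.435 CPM in aversive libraries, and Znhit3 at 20.7 and 38.7 CPM in aversive ones. Over all tested genes, the median absolute log2 difference between replicates was 1.46 in appetitive and 1.69 in aversive, against 0.718 to 0.905 in mock and 0.679 to 1.13 in neutral. Of the 9 genes, 4 had at most 3 reads in appetitive replicate 1 and 2 had so few in appetitive replicate 2, and none in any other library.

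**Figure D3:**
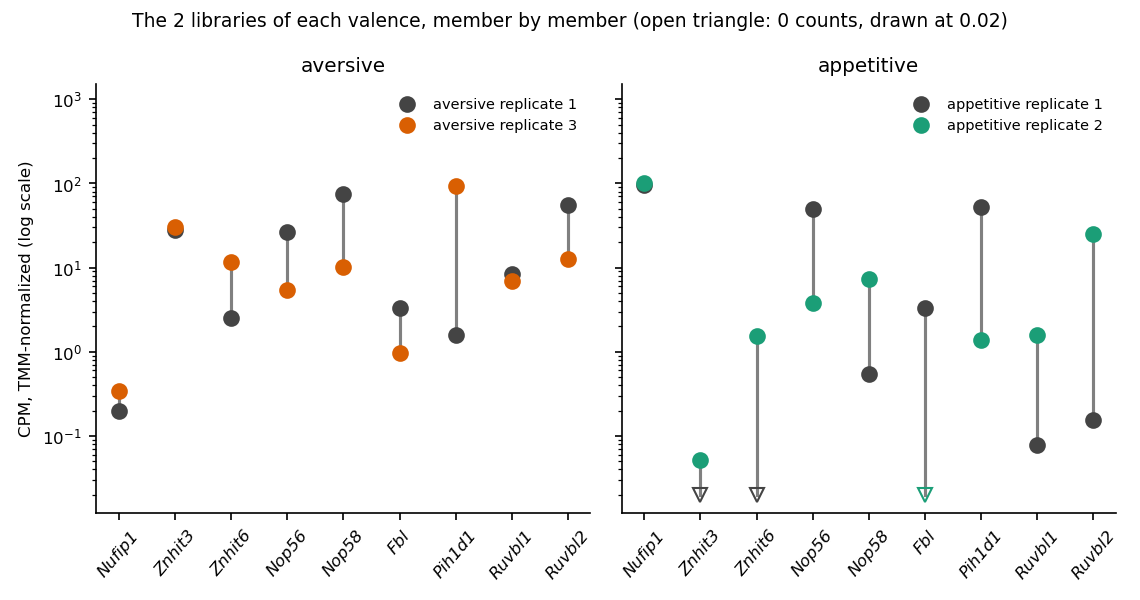
TMM-normalized CPM of each of the 9 genes in the 2 aversive libraries (left) and the 2 appetitive libraries (right), on a log axis, with a grey line joining the libraries of a group; open triangles at 0.02 mark 0 counts. Nufip1 and, in the aversive group, Znhit3 have short lines, whereas Pih1d1 spans 1.60 to 94.5 CPM in aversive and 1.36 to 52.8 CPM in appetitive libraries.

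Levels were also divided by the kilobases of annotated exon, taken as the union over all transcripts of a gene. By this measure Nufip1 was among the least abundant of the 9 messengers in mock and neutral cells. The order depends on that length, which can exceed the length of the messenger present. In neutral libraries Nop56 (18.1 ± 4.82 CPM per kb, SD, n = 3), Ruvbl2 (17.2 ± 2.74) and Pih1d1 (16.7 ± 2.30) were highest and did not differ beyond their spread. Ruvbl1 (8.80 ± 3.82), Znhit3 (8.25 ± 3.52) and Znhit6 (5.35 ± 3.70) followed within their spread of each other. Nop58 (2.21 ± 1.18) and Nufip1 (1.77 ± 0.360) could not be ordered by this measure, and Fbl was last at 0.753 ± 0.532. The lengths used were 10758 bases for Nop58 and 3974 for Nufip1. In CPM, not divided by length, Nop58 (12.9 to 37.8) lay above Nufip1 (5.54 to 8.39) in neutral libraries. Nufip1 ranked 6th to 8th of the 9 in the mock and neutral libraries, last in both aversive libraries, 2nd in appetitive replicate 1 after Pih1d1, and 1st in appetitive replicate 2. Its mean was 24.6 CPM per kb in appetitive and 0.0680 in aversive cells.

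Across the 10 libraries, the log2 level of Znhit3 had a Pearson r of −0.76 with that of Nufip1, which placed it 19459th of 19753 genes in order of r. Values for the other partners ran from −0.63 for Nop58 through −0.55 for Ruvbl1, −0.44 for Ruvbl2, −0.42 for Znhit6, −0.37 for Fbl and −0.04 for Pih1d1 to 0.10 for Nop56. These are descriptions over libraries of 4 groups that share their depth and cell content, and r has no p. The 5 genes most like Nufip1 by this measure were Cbr4 (0.96), 1700019D03Rik (0.95), Adprm (0.95), Cdip1 (0.95) and the lincRNA gene Gm32618 (0.95). Cbr4, a carbonyl reductase of mitochondria, had 740 and 710 reads in appetitive and 2 and 13 in aversive libraries. Adprm, a phosphatase acting on ADP-ribose, had 58.6 CPM in appetitive replicate 1 against 2.85 and 1.00 CPM in the aversive libraries.

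For the wider pathway, 10 lists held 109 genes other than Nufip1, the 8 partners among them: the core and assembly proteins, the R2TP complex with HSP90 and its adaptors, the box H/ACA particle that guides pseudouridylation, the U3 small-subunit processome, snoRNA capping and transport, snoRNA host genes, FMRP and its partners, and transcription of ribosomal RNA. In appetitive versus neutral, 0 of the 109 were called higher and 8 lower (7.34%, against 6.17% of all genes). Their median log2 difference was −0.27 against −0.91 over all genes. In appetitive versus aversive 2 were called, both lower (1.83%, against 1.8% of all genes), and in appetitive versus mock 1 was called higher and 3 lower (3.67%, against 1.98%). In the comparisons of aversive cells with neutral and mock and of neutral with mock, edgeR called 0, with 15, 10 and 2 at an unadjusted p under 0.05 and 11, 9 and 1 called by DESeq2. Of the 19754 tested genes, 3765, 1968 and 2658 had such an unadjusted p in these comparisons, and DESeq2 called 3388, 1476 and 1589.

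Besides Znhit3, the list genes called lower in appetitive than in neutral cells were spread over 3 lists. Rpap3, the subunit that ties R2TP to HSP90, had 3 and 1 reads in the appetitive libraries against 826 to 3466 in neutral and 338 to 1090 in mock (edgeR adjusted p = 0.0369). The processome genes Utp18 (0 and 1 reads), Wdr12 (1 and 1) and Noc4l (2 and 3) had adjusted p of 0.0305, 0.0397 and 0.0494 with 746 or more reads in each neutral library. Of the genes for transcription of ribosomal RNA, Taf1b (1 and 0 reads) and Taf1a (0 and 2), subunits of the selectivity factor SL1, and Polr1a (6 and 2), the largest subunit of RNA polymerase I, had adjusted p of 0.0228, 0.0242 and 0.0397. All but Noc4l and Polr1a had at most 4 reads over both appetitive libraries. At the same time 36 and 33 of the 109 list genes (33.0% and 30.3%) had at most 3 reads in the appetitive libraries, a smaller share than of all tested genes. All 8 calls against neutral, Znhit3 included, were lost in a fit of the 2 groups alone, with adjusted p of 0.0951 to 0.0995, and without any 1 mock library.

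Utp18 and Taf1b parted in the aversive libraries. Taf1b had 551 and 758 reads there and was lower in appetitive than in aversive cells (edgeR adjusted p = 0.0371) and than in mock cells (0.0382). Utp18 had 14 and 6 reads in the aversive libraries against 1007 to 1207 in neutral, so that it was low in both valence groups, and its call was against neutral and mock (0.0413, and 0.0523 with DESeq2 size factors). Neither gene followed the order of Nufip1 or of Znhit3.

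Snhg20, a host gene of snoRNAs, was the 1 list gene called higher. It had 123 and 208 CPM in appetitive libraries against 15.3 to 24.6 CPM in mock, a log2 difference of 3.09 (SE 0.69, edgeR adjusted p = 0.0494). Neutral (96.5 to 241 CPM) and aversive libraries (102 and 196 CPM) overlapped with appetitive. Of the 19 host genes tested, 15 had a higher and 4 a lower fitted level in appetitive than in mock cells, with a median log2 difference of 1.26 against −1.45 over all genes. Aversive cells had a like shift: against mock, 18 were higher and 1 lower, with a median of 1.14 against −0.13 over all genes. In neutral versus mock, 8 were higher and 11 lower. The call for Snhg20 was lost with DESeq2 size factors in edgeR (adjusted p = 0.0518), with library size alone (0.0878) and without a filter (0.0563). It was also lost in edgeR with a replicate block (adjusted p = 0.173) and without any 1 mock or neutral library (adjusted p 0.0683 to 0.158).

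**Figure D4:**
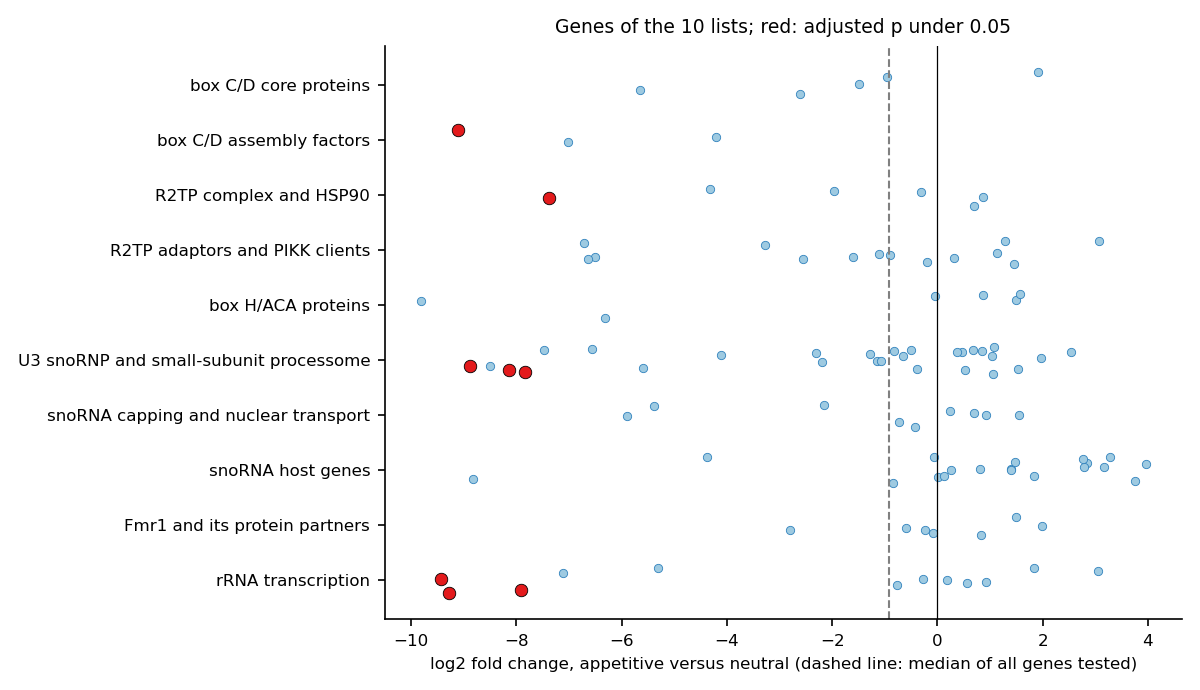
Fitted log2 fold change, appetitive versus neutral, of the 109 genes in each of the 10 lists (1 point a gene, vertical scatter within a list for legibility); red points have an adjusted p under 0.05 and the dashed line is the median of all tested genes, −0.91. The 8 red points all lie at the lower end, in the lists of assembly factors, R2TP, processome and rRNA transcription.

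The lists of box C/D core proteins, R2TP adaptors and their kinase clients, box H/ACA proteins, snoRNA capping and transport, and FMRP with its partners had 0 called genes in all 6 comparisons by edgeR. Of all tested genes, 0% to 6.17% were called in a comparison, so that few calls would be looked for in lists of this size. Of a list, 0 to 4 genes had an unadjusted p under 0.05 and DESeq2 called 0 to 4. Of all tested genes, 1968 to 5779 had such a p, and DESeq2 called 1476 to 6053 over its gene set. For Fmr1 and its protein partners, among which NUFIP1 was first described, the median log2 difference of the 7 genes was −0.08 in appetitive versus neutral and −0.15 in aversive versus neutral. Over all tested genes these medians were −0.91 and −0.15.

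On the chromosome, Nufip1 shares its start region with Gpalpp1, which is transcribed the other way from a start 130 bases upstream. Its reads were 243 and 801 in appetitive, 3 and 429 in aversive, 1816, 527 and 1461 in neutral and 218, 251 and 1813 in mock libraries, and it was not called in any comparison. Its log2 difference of appetitive from aversive cells was 2.80 (SE 1.68, edgeR adjusted p = 0.386), in the direction of Nufip1, and against neutral it was 0.77 (SE 1.42) in appetitive and −2.02 (SE 1.55) in aversive cells. The other annotated genes within 200 kb were Gtf2f2, Kctd4, the snoRNA gene Gm25517, the pseudogene Rps2-ps6 and 2900040C04Rik, and of these all but Gm25517, which had too few reads to be tested, were tested and not called. The stretch between the 2 starts is printed because it lies upstream of both genes. It is chr14:76110761-76110890 on the plus strand (RefSeq, GRCm38.p6), read towards Nufip1, with capitals on the letters TGACG, the core of the cAMP response element bound by CREB.
Nufip1 upstream: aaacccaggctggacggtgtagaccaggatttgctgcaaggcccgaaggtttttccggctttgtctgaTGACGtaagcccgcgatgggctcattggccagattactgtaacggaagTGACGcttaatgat
Searched on both strands, TGACG matched at 2 places in this stretch. It matched 1 or more times in 12.2% of 32851 windows of the same length upstream of RefSeq genes, and the share with 2 matches was not counted. The full element TGACGTCA, which contains TGACG, matched 0 times here and in 1.30% of windows, and the AP-1 site TGANTCA matched 0 times and in 3.70%. A match says only that these letters are present.

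Some partners share exonic bases with a neighbour, and counting ignored strand. How reads in such bases were assigned is not stated in the study's methods, so that they may have been lost or shared. Znhit3 overlaps Myo19 by 277 exonic bases, Pih1d1 overlaps Aldh16a1 by 149, Ruvbl2 overlaps Lhb by 138 and Gys1 by 310, and Nop56 overlaps Idh3b by 5. Of the snoRNA genes, Gm24451 (100 bases), Gm23187 (86), Gm23650 (70) and Snord57 (72) overlap exons of Nop56, and Gm26293 (84) those of Nop58. Nufip1, Znhit6, Fbl and Ruvbl1 overlap no other annotated gene.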

How the data were processed

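The values are read counts made by the authors. Per the labels and the study's methods, STAR was the aligner and mm10 the genome, only 40 bp from the start of a read entered alignment, and genes were counted in featureCounts (Subread), blind to strand, on an Ensembl annotation of GRCm38. The authors deposited these raw counts, not normalized, for 53379 genes in each of 10 libraries. Reads were not remapped here, and groups and replicate numbers were taken from the sample titles. Gene names, positions and exons came from GENCODE M21, of the same genome build, to which 53274 identifiers were matched. Promoter sequence came from a table of RefSeq promoters, in which 7 of the 9 genes were matched.

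Genes were kept with filterByExpr, libraries were scaled by TMM (factors 0.48 to 1.45), and a quasi-likelihood fit over all 10 libraries, with a coefficient for each of the 4 groups, was made in edgeR 4.0.16 (R 4.3.3), with a common dispersion of 1.49 and 5.05 prior degrees of freedom. The 6 pairwise comparisons were tested two-sided, and p-values were adjusted over 19754 genes by the Benjamini-Hochberg method. A gene was called at an adjusted p under 0.05. Log2 levels for correlations used a prior count of 2. The procedure was tested on simulated counts. DESeq2 1.42.0, the tool of the study, and other scalings, filters and sets of libraries were run as alternatives.

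The genes named were the 9, the 5 with the highest correlation with Nufip1, those within 200 kb of Nufip1 or overlapping 1 of the 9, and of each list the called genes, up to 3 in each direction of each comparison. The 9 genes, the lists and the markers were chosen with earlier results of these data known.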

Additional observations from a re-analysis of the deposited data

Results flagged for a closer look

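Nufip1 drew attention because both appetitive libraries lay above and both aversive libraries below all neutral libraries, with a log2 difference of 8.47 between appetitive and aversive cells. The gene was selected on this pattern, and the difference was not tested.

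Znhit3 and Taf1b drew attention because the appetitive and aversive groups differed by the direct test between them. For Znhit3 the edgeR adjusted p was 0.0325, with 0 and 1 reads in the appetitive and 563 and 1513 reads in the aversive libraries. For Taf1b it was 0.0371, with 1 and 0 against 551 and 758 reads. Groups of 2 or 3 libraries were too small to be screened for single libraries that stand apart.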

How the results depend on the processing

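Nufip1 kept its direction in all 6 comparisons under each alternative, and its log2 difference moved by more than the replicate spread once, to 3.26 for appetitive versus neutral with library size alone. Leaving out 1 library gave −5.11 to −4.33 for aversive versus neutral, 3.67 to 3.97 for appetitive versus neutral, 8.05 to 8.91 for appetitive versus aversive, −5.87 to −5.17 for aversive versus mock, 2.64 to 3.15 for appetitive versus mock and −1.12 to −0.61 for neutral versus mock. With library size alone, 41 genes held the order of Nufip1.

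The counts of calls were less stable, and the cause was not tested. For partners, DESeq2 called 3, 2 and 3 in appetitive versus neutral, aversive and mock, and a fit of the 2 groups alone called 0 in appetitive versus neutral and aversive. Leaving out 1 library gave 0 to 4, 0 to 2 and 0 to 2: 0 without any mock library or neutral replicate 3 (against aversive and mock, without any mock or neutral library), and 4, 2 and 2 without appetitive replicate 2. For list genes in the same comparisons, DESeq2 called 32, 24 and 35, where it called 6053, 3951 and 4803 over its whole gene set. No filter gave 13, 7 and 7, the 2 groups alone 0, 0 and 20, and DESeq2 size factors in edgeR gave 2 against mock. Leaving out 1 library gave 0 to 16, 0 to 10 and 0 to 14: 0 without any mock library or neutral replicate 3, and against aversive and mock also without any other neutral library. Without neutral replicates 1 and 2 the count against neutral was 1 and 5, without aversive replicates 1 and 3 the 3 counts were 16, 10, 14 and 16, 5, 14, and without appetitive replicates 1 and 2 they were 6, 5, 5 and 13, 9, 10. DESeq2 called 11, 9 and 1 list genes in aversive versus neutral, aversive versus mock and neutral versus mock, and without either appetitive library the count in aversive versus neutral was 1.

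The deviations of same-numbered libraries from their group means had correlations of −0.037 to 0.165. Whether the numbers pair libraries cannot be settled by this. A comparison shared only 1 to 3 numbers, and in a group of 2 libraries the deviations mirror each other. The study's reporting summary states that batch effects were controlled for, and the labels name no batch. With a replicate block, edgeR called 0 partners and 0 list genes in every comparison, where Znhit3 had adjusted p of 0.0807, 0.151 and 0.148.

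Of 48 partner log2 differences, 18 changed sign in 1 or more of 768 refits, and 0 of these changes was called. With the block these were Pih1d1 in aversive versus neutral (−0.36) and appetitive versus aversive (0.17), Fbl in aversive (−0.98) and appetitive (−1.58) versus mock and Ruvbl1 in aversive versus mock (0.41). With DESeq2 size factors and with DESeq2 they were Pih1d1 in appetitive versus neutral (0.0646 and 0.0548) and Ruvbl1 in aversive versus mock (0.0526 and 0.0475), the latter also with 2 groups alone (0.0613). With library size alone they were Ruvbl2 in aversive versus mock (−0.15), Fbl (−1.20) and Pih1d1 (−0.34) in appetitive versus mock and Znhit6 in neutral versus mock (0.0241). Leaving out 1 library turned more of them. In aversive versus neutral these were Nop58 (−1.22 to 1.64), Fbl (−1.69 to 0.0825), Pih1d1 (−4.39 to 1.51) and Ruvbl2 (−1.96 to 0.15). In appetitive versus neutral it was Pih1d1 (−4.73 to 0.57), and in appetitive versus aversive they were Nop56 (−2.26 to 2.18), Fbl (−9.73 to 0.66) and Pih1d1 (−5.26 to 4.07). In aversive versus mock they were Nop58 (−0.89 to 2.07), Fbl (−0.81 to 1.07), Pih1d1 (−3.31 to 2.48), Ruvbl1 (−0.32 to 0.0711) and Ruvbl2 (−1.27 to 0.95). In appetitive versus mock they were Fbl (−9.34 to 0.85) and Pih1d1 (−3.75 to 1.54), and in neutral versus mock Znhit3 (−0.11 to 0.47), Znhit6 (−0.80 to 0.24) and Nop58 (−0.0751 to 0.72). The scaling also moved the median of all genes in appetitive versus neutral, from −0.91 to −0.63 with DESeq2 size factors and to −1.45 with library size alone.

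Levels of at most 3 reads could not be told from 0, which covers Znhit3, Znhit6, Ruvbl1 and Ruvbl2 in appetitive replicate 1 and Znhit3 and Fbl in appetitive replicate 2.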
